A study of Mus musculus with 65 samples.

Results

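CTCF is a zinc-finger protein that binds a long, conserved DNA motif, marks chromatin loop anchors together with cohesin, and acts at insulators. The motif has a direction, and the strands of neighboring sites are part of how loops are described, with anchors commonly facing each other. CTCF occupancy is known to be shared by many cell types, and the sites described here were the ones with a CTCF peak in every one of 25 ChIP-seq peak lists from mouse blood cells. Peaks of the 25 lists that shared at least 1 bp were merged into 66618 sites, and 2492 of them, 3.74%, held a peak of all 25 lists. These 2492 sites are called members below. They were chosen on the calls of these lists, so the ranks, fold enrichments and widths within the 25 lists are given as description, with no test. The sites used for comparison were the 12076 with a peak in 12 to 24 lists.

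The series held 53 peak lists, 34 of CTCF and 19 of the blood transcription factor TAL1, from a study of how the length of sheared chromatin affects ChIP-seq. Of the 25 lists, 14 were labelled Pass in G1E-ER4+E2, an erythroid line grown from mouse embryonic stem cells that lack the factor GATA1, in which a GATA1-estrogen receptor fusion was activated by 24 hours of β-estradiol. The other 11 lists came from bone marrow cells of C57BL6 male mice, 5 to 8 weeks old, sorted by surface markers into 8 populations: LSK (2 lists), CMP, MEP, CFUE, ERY (2 lists), GMP, CFUMk and iMk (2 lists). All 25 used the same CTCF antiserum, with sheared chromatin averaging 199 to 302 bp. The CMP and GMP lists were labelled Low Pass, so the members were not confined to lists of the best label. The labels do not say that lists of a group came from separate cultures or animals, so the spread between them may be technical. By the paper, the cell line experiments varied sonication cycles in batches of different cell number, and included a pilot on fewer cells. Others were earlier experiments under varied conditions, among them different fixation. The 14 cell line lists are therefore not plain replicates. The methods also give primary cells a longer fixation than the cell line. No RNA was measured, and the cell types could not be checked against marker genes.

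The DNA at the members with the highest ranks is shown first, because the CTCF motif in it is what most members shared. Each line gives GRCm38 coordinates and strand with the best motif match in capitals and 20 bp on either side, read 5′ to 3′ along the motif from the RefSeq sequence. The place named is that of the site in the GENCODE annotation. These are the 8 of the 10 highest-ranked members that held a match.
Sec22c intron, chr9:121697680-121697738, plus strand: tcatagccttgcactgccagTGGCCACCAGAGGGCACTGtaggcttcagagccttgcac
intergenic, nearest coding gene Hnrnpa3, chr2:75605862-75605920, plus strand: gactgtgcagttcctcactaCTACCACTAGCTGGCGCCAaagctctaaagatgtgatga
Fam129b intron, chr2:32912609-32912667, minus strand: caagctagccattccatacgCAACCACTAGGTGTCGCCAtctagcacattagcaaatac
Gdf15 coding exon, chr8:70629872-70629930, minus strand: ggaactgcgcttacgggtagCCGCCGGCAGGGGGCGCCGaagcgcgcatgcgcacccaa
Nemp1 exon, chr10:127674783-127674841, plus strand: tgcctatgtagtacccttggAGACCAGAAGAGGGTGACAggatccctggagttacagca
Gins4 promoter, chr8:23237863-23237921, minus strand: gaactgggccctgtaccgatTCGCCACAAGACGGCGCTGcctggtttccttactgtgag
intergenic near Arid3a, chr10:79925388-79925446, minus strand: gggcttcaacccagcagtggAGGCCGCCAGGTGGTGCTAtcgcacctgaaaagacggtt
intergenic near Rbm19, chr5:120102908-120102966, minus strand: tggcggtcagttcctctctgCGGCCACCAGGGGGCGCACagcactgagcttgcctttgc

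Of the 10 members with the lowest ranks, 9 held a match; the exception, at chr1:85286576-85288393, had a best score of −5.08 bits. Among these 9, 3 are shown to set beside the lines above: Stat2, whose match scored high (24.5 bits), and the sites near Cox7a2l and Trim29, whose matches scored lowest (11.8 and 8.38 bits).
Stat2 intron, chr10:128284220-128284278, minus strand: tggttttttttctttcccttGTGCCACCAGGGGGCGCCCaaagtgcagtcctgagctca
intergenic near Cox7a2l, chr17:83563785-83563843, plus strand: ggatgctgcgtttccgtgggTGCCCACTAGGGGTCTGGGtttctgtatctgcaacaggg
intergenic, nearest coding gene Trim29, chr9:43284469-43284527, minus strand: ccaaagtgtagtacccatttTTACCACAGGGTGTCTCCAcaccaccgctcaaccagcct

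The number of lists with a peak was spread toward both ends. A single list held 31362 of the merged sites and exactly 24 lists held 1387, so the 2492 members outnumbered the class just below them. The list that was missing at sites of 24 lists was most often one from ERY or CFUE cells. Of the 1387 sites of 24 lists, 424 lacked a peak in the ERY list of 276 bp chromatin, which at 6629 peaks was the shortest of the 25. Another 245 lacked the CFUE list, 194 the ERY list of 250 bp, 163 the cell line list of 302 bp and 106 the CMP list. Without both ERY lists and the CFUE list, 4567 sites held a peak in all the other 22 lists.

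**Figure D1:**
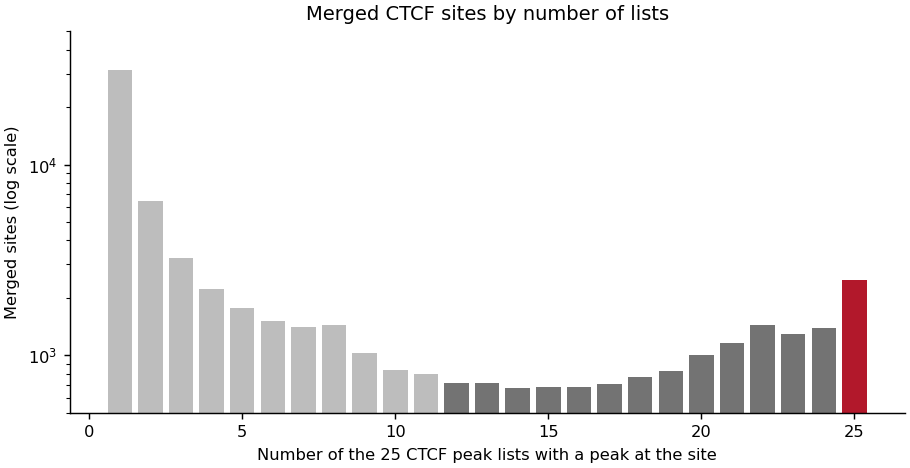
Merged CTCF sites (y axis, log scale) by the number of the 25 peak lists with a peak at the site (x axis). The red bar is the 2492 members, dark grey bars the 12076 sites of 12 to 24 lists, and light grey bars sites of fewer lists; the bar for 1 list reaches 31362.

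Members ranked high in each list, though not at the top. Ranks are percentiles of fold enrichment within a list, since fold enrichment also depends on sequencing depth, which the peak lists do not give. The members' median percentile was 71.4 in the ERY list of 276 bp, 93.6 in the CFUMk list, and 84.7 in the middle list of the 25. The sites of 12 to 24 lists, where called, had medians between 40.8 and 73.0. Members made up 7.01% of the peaks of the longest list and 38.8% of those of the shortest. Just inside the threshold, members had a median over lists of 85.5 (quartiles 77.1 and 91.9), and just outside it the sites of 24 lists had 73.7 (65.1 and 81.9).

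**Figure D2:**
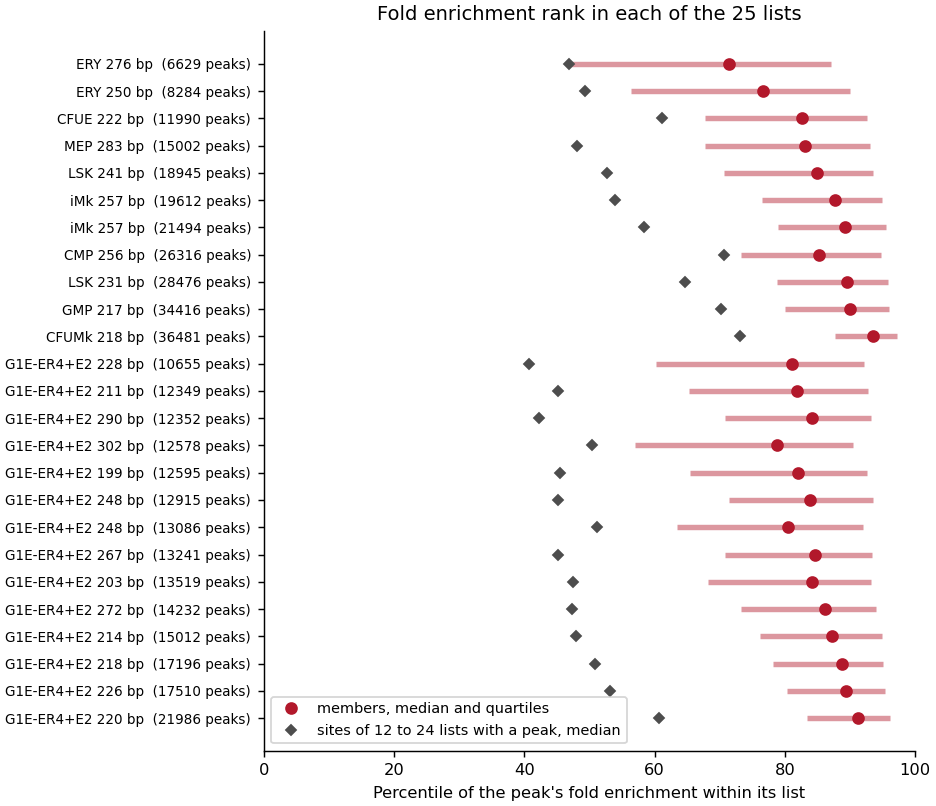
Percentile of fold enrichment within each of the 25 lists (x axis, percent) for members (red points, medians; bars, quartiles) and for the sites of 12 to 24 lists called in that list (grey diamonds, medians). Lists are named by cells, chromatin length and number of peaks; the members' medians run from 71.4 to 93.6.

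The rank of a member varied between lists. The SD of a member's percentile over the 25 lists had a median of 15.4 points, and the lowest percentile of a member had a median of 37.4. Only 806 members, 32.3%, stood at or above the 50th percentile in every list, and 47 stood at or above the 90th. The ERY list of 276 bp gave the lowest rank for 465 members, more than any other list. Medians over the 11 primary and the 14 cell line lists were related across members (Spearman's rho 0.62, over 2492 sites that share lists and depth). They differed by over 20 points at 182 members, of which 134 were higher in primary cells and 48 in the cell line.

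The 10 highest-ranked members included intergenic, intronic and exonic sites as well as promoters. First was an intergenic site 1278 bp from the start of Dus3l, which encodes a tRNA-modifying enzyme, at chr17:56762975-56764090. Its percentile lay between 99.6 and 100 in the primary lists and was at least 99.98 in the cell line lists. Its fold enrichment had medians of 77.2 and 53.7. No matrix match was found in the middle 200 bp of this site, where the best score was 5.59 bits. The next, in an intron of Sec22c, a gene of vesicle transport, at chr9:121697098-121698797, was at or above 99.6 in all 25 lists and held a match of 26.4 bits.

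Not all high-ranked members were high everywhere. The member in the coding exon of Gdf15, a stress-induced cytokine, had a lowest percentile of 99.9 in primary cells and of 71.0 in the cell line, with a median of 99.8 there. The member 1579 bp from the start of Arid3a, a DNA-binding factor, behaved likewise, with lowest percentiles of 99.6 and 68.3. A member 165 bp from a non-coding transcript start, with Epcam as its nearest coding gene, had a lowest percentile of 32.2 in primary cells and of 99.6 in the cell line. In all 3, the median of each cell group stayed above 99.7, and the low values were those of the lowest lists.

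At the other end, the lowest-ranked member lay 49490 bp from the start of Cox7a2l, which encodes a factor of respiratory supercomplexes. Its percentiles ran from 25.02 to 75.6 in primary cells (median 61.2) and from 5.46 to 52.8 in the cell line (median 31.9). The Stat2 member, in the gene of an interferon signaling factor, ran from 0.575 to 72.9 in primary cells and from 10.9 to 82.7 in the cell line, in spite of a match of 24.5 bits. All 10 lowest-ranked members had medians between 42.5 and 49.8. Across the 2338 members with a match, motif score and median percentile were nearly unrelated (Spearman's rho −0.07, a description over sites that share lists).

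Members lay at promoters more often than the other recurrent sites. Of the 2492 members 505, or 20.3% (95% Wilson interval 18.7 to 21.9), lay within 1000 bp of a transcript start, against 11.5% (10.9 to 12.03) of the sites of 12 to 24 lists, while such windows cover 4.37% of the genome. The difference of 8.81 percentage points (Newcombe interval 7.17 to 10.5) had the same sign on 18 of 19 autosomes. The share did not climb steadily with the number of lists: it was 14.8% at 6 to 11 lists, 11.8% at 12 to 17, 11.01% at 18 to 23 and 12.5% at 24. Intervals here cover counting error only, sites on a chromosome are not independent, and no test over sites was made. Without the ERY and CFUE lists the difference was 3.98 points, and among sites with a median percentile of at least 75 in both classes it was 5.18.

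Away from promoters, 37.0% of members lay in introns against 44.3% of the comparison sites, and 36.2% were intergenic against 39.2%. Untranslated or non-coding exons held 4.82% against 3.45%, and coding exons 1.69% against 1.61%. These exon classes cover 1.78% and 1.13% of the genome. Only 4 members lay over 100 kb from any transcript start, 0.161% against 1.46% of the comparison sites. The median distance to a start was 5902 bp for members and 9367 bp for the comparison.

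At promoters, the motif tended to lie just upstream of the start. Among the 451 promoter members with a match, 72.9% (68.7 to 76.8) had it upstream of the nearest start, with a median position 78 bp before it. The match was on the strand of the gene in 63.4% (58.9 to 67.7), and both shares were lower at promoter sites of 12 to 24 lists, 65.4% and 58.0%. Promoter members served 592 genes, 436 of them protein-coding, and 83 members lay at the promoters of more than 1 gene. No gene had more than 1 member at its promoter. The 200 bp at the Gins4 promoter are shown because this was the highest-ranked promoter member rich in CpG. Gins4 encodes a subunit of the replicative helicase complex, and the site lay 207 bp from its start.
Gins4, chr8:23237766-23237965, minus strand, match in capitals: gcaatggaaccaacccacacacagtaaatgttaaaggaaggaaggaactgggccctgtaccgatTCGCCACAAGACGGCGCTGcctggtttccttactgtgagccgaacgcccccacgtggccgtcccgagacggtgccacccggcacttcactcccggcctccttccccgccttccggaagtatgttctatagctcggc

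That window held 15 CpG dinucleotides, an observed to expected ratio of 0.857. Its percentile was between 90.2 and 100 in the primary lists (median 99.7) and between 99.7 and 100 in the cell line lists (median 99.9).

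CpG content was higher at members, and less so outside promoters and among strong sites. A ratio of observed to expected CpG of at least 0.6 in the middle 200 bp was found at 394 members, 15.8% (14.4 to 17.3), and at 8.63% (8.14 to 9.14) of the comparison sites, a difference of 7.18 points (5.71 to 8.74). Members at promoters had this ratio in 46.1% and members elsewhere in 8.10%; the comparison had 36.6% and 5.01%. Outside promoters the difference was thus 3.09 points. Among sites with a median percentile of at least 75 it was 0.518 points, and without the ERY and CFUE lists 3.68. The median GC content was 53% in members and 48.5% in the comparison.

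**Figure D3:**
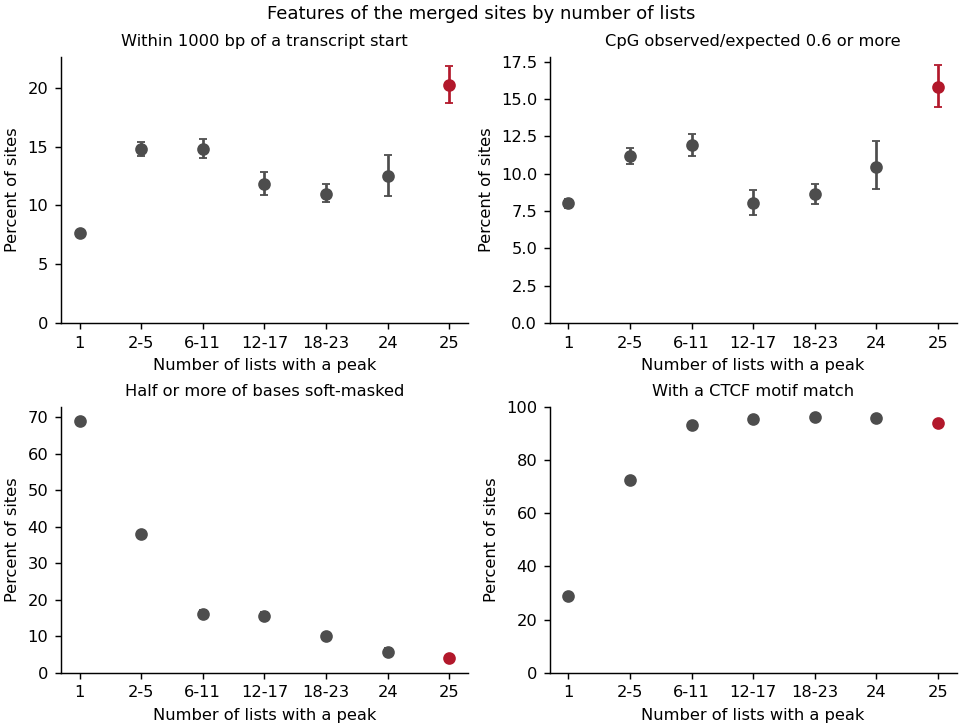
Percent of merged sites (y axes) within 1000 bp of a transcript start, with a CpG observed to expected ratio of at least 0.6, with 50% or more of their bases soft-masked, and with a CTCF motif match, by number of lists with a peak (x axes); bars are 95% Wilson intervals and red points the members. Promoter and CpG shares of members, 20.3% and 15.8%, stand above those of all other bins, and the soft-masked share is lowest at 3.97%.

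Few members lay in repeats. Soft-masked bases, which mark repeats in the RefSeq sequence, made up at least 50% of the window at 99 members, 3.97% (3.27 to 4.81), against 11.5% (10.96 to 12.1) of the comparison sites and 69.1% of sites in a single list. The share was lower in members on 18 of 19 autosomes. It followed the number of lists, with 15.6% at 12 to 17, 10.2% at 18 to 23 and 5.55% at 24. At promoters 1.19% of members were mostly masked and elsewhere 4.68%. Among sites with a median percentile of at least 75 the classes held 3.28% and 4.44%, and over whole merged intervals the difference was −2.96 points in place of −7.55.

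Copies of a match were also rarer. The 19 bp of the best match were identical in at least 1 other member for 169 of 2338 members, 7.23%, against 18.5% of the comparison sites among themselves, a larger pool. The match shared by most members, 11 of them, read:
shared match: CCGCCACTAGATGGTGCTA
It was masked in full or in all but 1 base at each of the 11 sites. One of these lay in an intron of Lctl (chr9:64139072-64139090) and another in an intron of Mrs2, a mitochondrial magnesium channel (chr13:25015417-25015435), with median percentiles of 84.8 and 85.7. The commonest match of the comparison sites occurred 103 times and was masked in full at each.

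A CTCF motif match was found in 2338 members, 93.8% (92.8 to 94.7). The matrix was 19 bp wide and learned from the 2000 strongest peaks of the Low pass library of 178 bp, which did not choose the members though many of them had a peak in it; both strands of the middle 200 bp were searched with a threshold of 7.08 bits (a chance of 1e-04 per position). In windows of the same length, 95.9% of the comparison sites and 28.7% of sites of a single list held a match. Members thus held fewer, by 2.06 points (1.11 to 3.13), and the share was lower in members on 14 of 19 autosomes. Promoter members had a match in 89.3% and others in 94.97%. Over whole merged intervals the difference turned to 0.598 points in favor of members, and with peaks of −log10 p of at least 10 it was −6.75.

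The matches that members had were slightly stronger and richer in CpG. Their median score was 20.1 bits (19.9 to 20.5) against 19.45 (19.36 to 19.52) in the comparison and 20.1 at sites of 24 lists. At least 1 CpG was present in 58.0% (55.9 to 59.9) of members' matches and in 46.9% (45.9 to 47.8) of the others, higher in members on 18 of 19 autosomes. The CpG that begins at base 15 of the motif, counted from its 5′ end, was present in 45.04% of members and 36.5% of the comparison, and that at base 5 in 11.8% and 6.70%. C was also commoner at base 7 (64.5% against 53.8%) and at base 8 (47.2% against 36.4%).

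Several of the sequences printed above, those near Hnrnpa3, Nemp1, Rbm19 and Trim29 among them, carry a short word a few bases before the capitals. The word AGTNCC, chosen after these sequences were seen, was sought in the 20 bp before and after each match along the motif strand. It stood upstream in 279 members' matches, 11.9% (10.7 to 13.3), and downstream in 1.92%; its reverse complement stood upstream in 1.497%. Of the words found upstream, 76.4% ended exactly 5 bp before the match. The comparison sites had it in 10.7%, a difference of 1.20 points whose interval (−0.180 to 2.68) included 0. Members with a match score below their median had it in 14.5% and the others in 9.32%.

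Members stood in gene-rich regions, near other recurrent sites. Another site of 12 to 25 lists lay within 10 kb of 40.4% (38.5 to 42.3) of members and 29.2% (28.4 to 29.98) of the comparison sites, higher in members on all 19 autosomes. Both classes were measured against the same pool of sites. The difference of 11.2 points was 7.77 without the ERY and CFUE lists and 6.77 with peaks of −log10 p of at least 10. Neighboring members were a median of 165485 bp apart while the mean was 948399 bp, and 6.84% of neighbors lay within 10 kb. Of the 2472 neighboring pairs, 18.9% were over 1 Mb apart. The more numerous comparison sites lay closer to each other, with a median of 66176 bp, 13.1% within 10 kb and 4.11% over 1 Mb. Members per Mb of sequence ran from 0.521 on chromosome 13 to 2.30 on chromosome 11, and were related to protein-coding genes per Mb over the 19 autosomes (Spearman's rho 0.86, Pearson's r 0.87, both given as description). Recurrent sites as a whole were also unevenly spread, with 4.34 sites of 12 to 25 lists per Mb on chromosome 13 and 10.5 on chromosome 11. The members' share of those sites had a lower Spearman's rho with genes per Mb, 0.69.

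The X chromosome held almost no members. Only 2 of its 163 sites of 12 to 25 lists, 1.23% (0.337 to 4.36), had a peak in all 25, against 2490 of 14405, 17.3% (16.7 to 17.9), on autosomes, where the share ran from 12.01% to 21.9%. The X sites were not poor in motif: all 163 held a match, with a median of 20.3 bits against 19.5 on autosomes. Mostly soft-masked sites made up 14.1% of them against 10.2% on autosomes. The mice of the primary lists were all male. The parts of repeats and of X copy number in the low share were not tested. X sites were called less often than autosomal ones in 22 of the 25 lists, including all 14 cell line lists; the exceptions were the CFUMk list and both iMk lists. Their median over lists was 16, against 21 on autosomes, and their median percentile 40.3 against 56.6. The Y chromosome had no site of 12 or more lists.

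**Figure D4:**
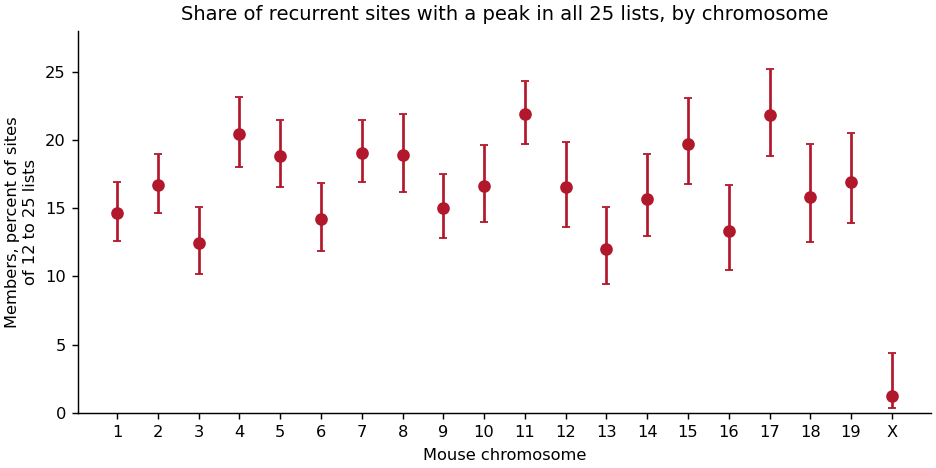
Members as a percent of the sites of 12 to 25 lists (y axis) on each mouse chromosome (x axis); bars are 95% Wilson intervals. Autosomes lie between 12.01% and 21.9%, and the X chromosome, with 2 of 163 sites, at 1.23%.

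The strands of neighboring motifs depended on distance. Over all 2174 neighboring pairs of members with matches, 25.1% were convergent (facing each other), 25.1% divergent and 49.9% on the same strand. Within 10 kb, 13.3% (8.80 to 19.7) of 150 pairs were convergent and 32.0% (25.1 to 39.8) divergent. From 10 to 100 kb, 25.4% of 672 pairs were convergent and 28.4% divergent. Between 100 kb and 1 Mb the order turned, with 29.3% (26.4 to 32.3) of 936 pairs convergent and 20.3% (17.8 to 22.99) divergent. Over 1 Mb it turned back, with 19.2% (15.7 to 23.3) of 416 pairs convergent and 27.9% (23.8 to 32.4) divergent. Neighbors among the comparison sites gave 15.2% and 31.4% within 10 kb, and 31.9% and 21.3% between 100 kb and 1 Mb. Over 1 Mb the comparison did not turn back, with 33.1% (28.98 to 37.5) convergent and 17.97% (14.7 to 21.7) divergent. Pairs of members were formed across any sites of 12 to 24 lists that lay between them. When all sites of 12 to 25 lists were paired with their neighbors, the turn back was absent. Of 454 such pairs over 1 Mb apart, 33.5% (29.3 to 37.9) were convergent and 17.2% (13.99 to 20.9) divergent. With peaks of −log10 p of at least 10, 27.5% of all pairs were convergent.

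The densest stretch of 100 kb held 6 members within 82054 bp, between chr8:120281632 and chr8:120363686, all inside Gse1, a gene of a corepressor-associated protein. Their motifs read plus, plus, plus, plus, minus, minus along the chromosome. Their median percentiles were 93.8, 75.6, 97.2, 99.1, 83.1 and 77.4, in the same order. The next held 5 members within 44328 bp around Ptpn7, a blood-cell tyrosine phosphatase, and Arl8a, a lysosomal GTPase. The third held 5 within 68094 bp around Fosb, Ercc1, Rtn2 and Ppp1r13l, a stretch with genes of an AP-1 factor and of DNA repair. The widest gaps between neighboring members were 29292232 bp on chromosome 16, 27581407 bp on chromosome 4 and 25823996 bp on chromosome 14. They held 38, 48 and 32 sites of 12 to 24 lists and 84, 104 and 47 protein-coding genes, so recurrent sites were present there without a call in all 25 lists.

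Both loci that the study used to show its CTCF signal held members. The Gfi1b window, named for a repressor needed in erythroid and megakaryocytic cells, held 3 members among 14 merged sites, and the window of Zfpm1, a GATA1 cofactor, held 2 among 12. Their matches are printed because these loci are where the signal of single libraries was shown.
Gfi1b window, near Gtf3c5, chr2:28585309-28585367, plus strand: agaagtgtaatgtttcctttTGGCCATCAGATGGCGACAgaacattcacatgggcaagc
Gfi1b window, second site, chr2:28592979-28593037, plus strand: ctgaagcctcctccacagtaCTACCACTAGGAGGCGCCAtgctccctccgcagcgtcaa
Gfi1b promoter, chr2:28622668-28622726, minus strand: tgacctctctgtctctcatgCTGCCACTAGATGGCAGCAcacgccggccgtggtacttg
Zfpm1 window, Zfp469 promoter, chr8:122269599-122269657, minus strand: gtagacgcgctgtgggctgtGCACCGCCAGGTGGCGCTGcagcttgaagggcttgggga
Zfpm1 window, second site, chr8:122273303-122273361, plus strand: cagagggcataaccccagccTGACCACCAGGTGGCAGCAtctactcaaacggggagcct

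The pair of sites nearest Gtf3c5, which encodes a subunit of an RNA polymerase III factor, had median percentiles of 95.6 and 93.1, both on the plus strand. The promoter member, 729 bp from the start of Gfi1b and facing them on the minus strand, had 73.0. Its percentiles ran from 62.2 to 92.2 in primary cells (median 77.8) and from 18.4 to 83.9 in the cell line (median 66.8), so the groups overlapped. The Zfpm1 pair had median percentiles of 89.0 and 88.9. Their motifs pointed away from each other.

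Of 21911 protein-coding genes, 1533, or 7.00%, had a member within 10 kb of their start, and another 17.9% had only a site of 12 to 24 lists there. Against that background, 6 of 16 erythroid regulators had one, 37.5% (18.5 to 61.4): Tal1, Klf1, Zfpm1, Gfi1b, Nfe2 and Jak2. Erythroid products had 2 of 16, Urod and Ppox, both enzymes of heme synthesis. Stem and progenitor genes had 1 of 12, Lyl1, a relative of Tal1. CTCF and cohesin genes had 3 of 18: Pds5a, a cohesin regulator, Esco1, a cohesin acetyltransferase, and Maz, a zinc-finger factor. Housekeeping genes had 4 of 24: Gusb, Rplp0, Vcp and Hnrnpa1, the last through the Nfe2 site. Megakaryocyte genes and granulocyte and monocyte genes each had 0 of 10, for which the interval reaches 27.8%. These lists are short and were chosen with earlier results of these data known, and no test of a list was made. Gfi1b and Zfpm1 are also the loci at which the study showed its CTCF signal. The 37.5% therefore describes a chosen list and is not evidence of enrichment.

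Hox genes and imprinted genes are both known for CTCF sites at their boundaries. None of 39 Hox genes had a member within 10 kb (0 to 8.97%), while 17 of them, 43.6%, had a site of 12 to 24 lists only. Of 21 imprinted genes 1, or 4.76% (0.846 to 22.7), had a member, Phlda2, a growth-restraining gene, and 3 had only a comparison site. Both intervals include the 7.00% of all genes. They count clustered genes as independent, though neighboring genes can share a site within 10 kb. The Phlda2 member had a median percentile of 68.3 and no match in its middle 200 bp.

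Among the erythroid regulators, the Klf1 member lay in a coding exon of this globin gene activator, with 71.5% GC. Its percentiles ran from 90.2 to 99.7 in primary cells (median 97.9) and from 43.8 to 97.4 in the cell line (median 86.6). The Nfe2 member, in an intron of the gene of a globin-locus factor, had medians of 90.4 and 92.4. The Jak2 member, in an intron of the erythropoietin receptor's kinase, had 92.7 and 84.1. The Tal1 member stood 8490 bp from the start, with 61.1 and 71.7. In each of these, the ranges of the primary and cell line lists overlapped.

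The same measure was then taken in 9 CTCF libraries of the cell line that the choice had not used, 2 labelled Low pass and 7 labelled Fail. Some of them shared an experiment with lists that the choice used. The library of 178 bp came from the same sonication series as some Pass lists. Fail libraries, that of 329 bp among them, came from the same pilot on fewer cells as the Pass list of 302 bp. The test below treats the 9 libraries as independent units, which was not tested. Members had by definition a CTCF peak in every list of the choice, including the Pass lists of this cell line. Their median percentile there was 85.5, against 50.8 for comparison sites where called. A higher share of members called in further CTCF libraries of the line was therefore expected from the choice. The p-values of this test and its variants are not evidence of a separate property of members. In the Low pass library of 178 bp, 83.1% (81.5 to 84.5) of members and 37.1% (36.3 to 38.0) of comparison sites had a peak, against 10.3% of all merged sites. In that of 195 bp the shares were 86.4% and 34.7%. The Fail libraries fell into different ranges: 19.2% and 3.13% at 194 bp, 13.5% and 2.61% at 196 bp, and under 1% of both classes in the remaining 5. In each of those 5, members had a peak less often than all merged sites did, with 0 to 0.722% of members against 0.0390% to 4.12% of all sites. Over the 9 libraries, members were called in 22.6% ± 35.9 (SD, n = 9) and comparison sites in 8.67% ± 15.5, a difference of 13.9 points ± 20.7. Members were higher than comparison sites in 8 of 9, by 0.0223 to 0.548 points in 4 of these (exact two-sided sign-flip permutation test over libraries, p = 0.0117, adjusted over 2 tests 0.0117, smallest possible 0.00391).

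The Low pass libraries carried much of the mean: it was 9.21 points without that of 195 bp and 9.93 without that of 178 bp (exact permutation p = 0.0234 for each). Among sites with a median percentile of at least 75 it was 5.28 points (exact permutation p = 0.0469). Within the 7 Fail libraries the difference was 3.96 points ± 6.69, higher in 6 of 7 (exact sign-flip permutation test, p = 0.0469, smallest possible 0.0156). With 2 Low pass libraries the smallest possible p is 0.5. Where the middle 200 bp of each peak were merged and compared, the difference was 13.6 points and the exact permutation p was 0.0625. Recall followed rank among the members: in the Low pass library of 178 bp it was 64.2% in the lowest quartile of median percentile and 96.1% in the highest, and 47.99% and 90.9% of these quartiles were called in both Low pass libraries. Of all members 1836 were called in both, 551 in 1 and 105 in neither.

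**Figure D5:**
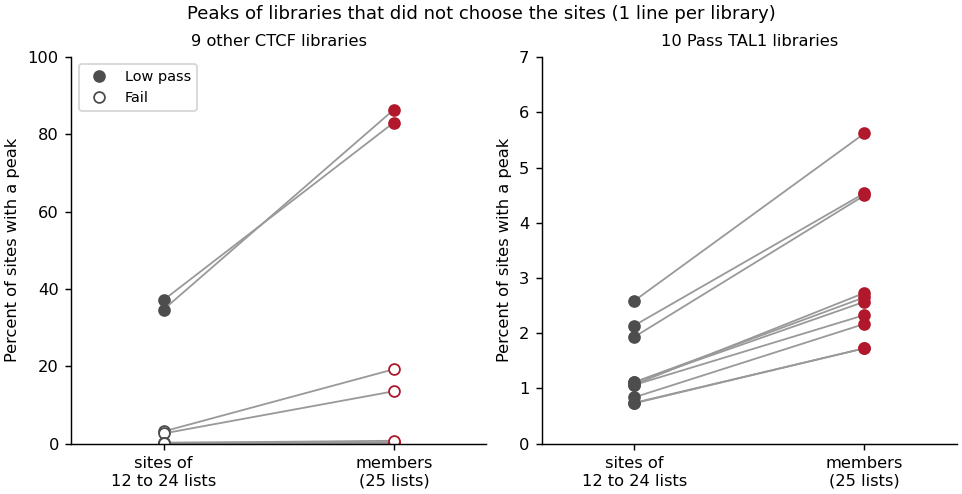
Percent of sites with a peak (y axes) in libraries that did not choose the sites, for sites of 12 to 24 lists and for members, with 1 line per library; left, 9 CTCF libraries (filled, Low pass; open, Fail), right, 10 Pass TAL1 libraries, on a smaller scale. Members are higher in 8 of 9 CTCF and 10 of 10 TAL1 libraries.

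TAL1 peaks, from another factor in the same cell line, overlapped few members. TAL1 is a basic helix-loop-helix protein that binds with GATA1 at erythroid enhancers. In the 10 Pass TAL1 libraries between 1.73% and 5.62% of members (median 2.61%) had a TAL1 peak, against 0.729% to 2.58% (median 1.09%) of the comparison sites. The difference was 1.72 points ± 0.701 (SD, n = 10), higher in members in 10 of 10 (exact two-sided sign-flip permutation test, p = 0.00195, the smallest possible; adjusted over 2 tests 0.00391). The test treats the 10 libraries as independent units, though all were of the same cell line and some shared a sonication series. Many of the same sites were called again across them, so the p-value reflects repeated calls more than separate observations. Without the ERY and CFUE lists the difference was 0.716 points (exact permutation p = 0.00195). Merged members were wider, with a median of 1161 bp against 1031. One of the 10, of 221 bp chromatin, is titled TAL1 but carries the CTCF antibody in its labels; without it the difference was 1.75 points (exact permutation p = 0.00391). With the middle 200 bp of peaks the difference was 0.619 points with the same exact permutation p of 0.00195. In any Pass library, 161 members, 6.46%, had a TAL1 peak, against 3.06% of comparison sites and 1.81% of all merged sites.

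TAL1 was called in all 10 Pass libraries at 27 members, 1.08%, and at 51 comparison sites, 0.422%, while 2331 members had no TAL1 peak in any. The Tal1 member was among the 27. The member at the promoter of Ppox had a TAL1 peak in 9 of the 10 libraries, that at Gins4 in 8, that at Gfi1b in 7 and the second Zfpm1 site in 4. The Klf1 and Nfe2 members had none. In the TAL1 libraries labelled Fail, lists that held few peaks, 0.0401% ± 0.0491 of members and 0.0397% ± 0.0277 of comparison sites had a peak (SD, n = 5), and members were higher in 1 of 5.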

How the data were processed

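Reads were mapped by the authors to mm10 (GRCm38) and peaks were called for each library with MACS. For the mapping, Bowtie 1.0.0 stands in the submitters' processing notes (beside bcl2fastq 1.8.4) while the published methods give an older Bowtie release. A composite input served as control for most libraries of the cell line. The p cutoff and the treatment of duplicate reads are not given in the sources used here. The deposited fold enrichment (a ratio over background) was used only as a percentile within a list, and the deposited −log10 p (never below 5) as a threshold. The deposited p-value column (a false discovery rate as a fraction) was not used. The lists give no read depth.

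Samples were grouped by their labels. Peaks sharing at least 1 bp were merged, and each site was placed at the median of its peak midpoints. Features of the 200 bp around that point came from the RefSeq GRCm38 sequence, with its soft-masking, and from the GENCODE basic annotation. Python 3.11.15, numpy 2.4.6, pandas 2.3.3, scipy 1.17.1 and numba 0.67.0 were used, and the steps were tested on simulated data. Wilson and Newcombe intervals were at 95%, and libraries outside the choice were compared with exact sign-flip permutation tests. Members, comparison sites and gene lists were chosen with earlier results of these data known. Named sites were the 10 highest- and 10 lowest-ranked members, those in the Gfi1b and Zfpm1 windows, in the 3 densest stretches of 100 kb and beside the 3 widest gaps, and those within 10 kb of the start of a listed gene; the match shared by 11 members was named after its values were seen. Alternatives left out lists, raised the −log10 p to 10, merged the middle 200 bp of peaks, or changed the comparison sites, window, motif and promoter definitions. The input samples were not analysed here.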

Additional observations from a re-analysis of the deposited data

Results flagged for a closer look

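Members exceeded the sites of 12 to 24 lists by 48.8 points on average in the 2 Low pass libraries and by 3.96 points in the 7 Fail libraries, a difference of 44.9 points. The study gave these labels by inspecting signal tracks at known loci, so the labels are not independent of the CTCF signal. How far that accounts for the larger gain under Low pass was not tested. An exact permutation test of the labels over 36 arrangements gave p = 0.0278, the smallest possible. It served only to flag the difference, which is given as a description. In 5 of the 7 Fail libraries under 1% of either class had a peak. In 6 checks for a single library far from the others in its group, none was.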

How the results depend on the processing

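Of 271 recomputed values, 244 kept their direction and side of the threshold, or moved by less than the margin allowed. Leaving out each list in turn gave 2491 to 2917 members, a promoter share of 18.5% to 20.7% and a promoter difference of 6.99 to 9.27 points, the lowest shares without the ERY list of 276 bp. Without the ERY and CFUE lists, an alternative chosen after seeing the data, there were 4567 members, and the differences were 3.98 points for promoters, 3.68 for CpG, 7.77 for a neighbor within 10 kb and 0.716 for TAL1 peaks. With peaks of −log10 p of at least 10 there were 609 members, 26.6% of them at promoters; the differences were 13.2 points for promoters, 12.2 for CpG, −4.64 for repeats, −6.75 for motif matches and 6.77 for neighbors, and 27.5% of neighboring pairs were convergent. Against sites of 18 to 24 lists, repeats gave −5.37 and neighbors 9.03. Over whole merged intervals, promoters gave 11.02, CpG 5.07, repeats −2.96 and motif matches 0.598, the sign turned. Outside promoters CpG gave 3.09. Among sites with a median percentile of at least 75, also chosen after seeing the data, promoters gave 5.18, CpG 0.518, repeats −1.17, neighbors 7.95 and recall 5.28 (exact permutation p = 0.0469). Recall differed by 13.6 points with the middle 200 bp of peaks (exact permutation p = 0.0625) and by 48.8 in the Low pass libraries alone (exact permutation p = 0.5, the smallest 2 libraries allow). Apart from fewer libraries in the last, the cause was not tested. No paired analysis was possible because the labels give no replicate numbers that groups share. That applies to pairing libraries of different groups. In the sign-flip tests, members and comparison sites were paired within each library. Without read depth, a site missing from a short list cannot be told apart from an unbound one.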
